A study of Homo sapiens with 32 samples.

Results

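This account describes the change between 12 and 24 h in SK-N-BE(2) cultures kept in CBD. SK-N-BE(2) is an established human neuroblastoma line with amplified MYCN, and CBD (cannabidiol) is a nonpsychoactive compound of cannabis. Its members are the 4 CBD samples at 12 h and the 4 CBD samples at 24 h, 8 of the 32 samples in the series, compared over every gene. Both groups received 20 µM CBD dissolved in ethanol. The 4 vehicle samples at 12 h and the 4 at 24 h received 0.1% ethanol alone and serve as the measure of what time in culture changes without the compound. Cells were plated in 6-well dishes, attached overnight and were treated the next morning, and one line, one dose and one medium limit the comparison. The sources do not say that the wells were grown from separate passages. The p-values measure a spread within groups that is pooled over all 32 samples, earlier times included, and that may be partly technical.

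Messenger RNA was read as single 50-base reads, and the deposited values are FPKM (fragments scaled by transcript length and by mapped reads), which allow levels to be compared between genes. The absolute number of reads per sample is unknown from FPKM. Relative depth, estimated from values worth about 1 read, lay between 0.787 and 1.01 of the median sample in CBD at 12 h and between 0.936 and 1.07 in CBD at 24 h. Entries of short RNAs, which are poorly measured in this kind of library, made up 54.8 to 57.2% of the summed FPKM at 12 h and 55.9 to 59.2% at 24 h. The lowest correlation between 2 samples of one group was 0.950 and 0.952 on the log2 scale in the 2 CBD groups. The line showed its defining transcripts in all 16 samples at 12 and 24 h, with MYCN between 1502 and 2452 FPKM, PHOX2A between 322 and 426 and HAND2 between 454 and 521. Of markers of other cells, the 5 keratinocyte markers in the table summed to 5.88 to 7.25 FPKM in the CBD samples, nearly all of it KRT10, and the 5 Schwann cell markers to 1.33 to 1.90. The 6 fibroblast markers summed to 62.4 to 64.3 FPKM in CBD at 12 h and 59.3 to 64.8 at 24 h. Most of that was LUM, with group means of 54.4 and 53.7, while COL1A2 and COL3A1 had means below 0.2 in both groups. Of the 6 fibroblast markers, 3 reached a mean of 1 FPKM over the 32 samples, so LUM was not the only one present.

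Metallothioneins are small cysteine-rich proteins that bind zinc, copper and cadmium. Their genes are switched on by MTF1, a transcription factor that senses free zinc and binds short DNA words called metal response elements, and MTF1 also switches on SLC30A1, which pumps zinc out of the cell. The integrated stress response acts through the transcription factor ATF4 and its target DDIT3 (CHOP), and in neuroblastoma cells the adrenergic program is kept by factors such as HAND2, GATA3 and ISL1.

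Promoters of genes that fell most are printed here because MTF1 acts through that word. Of 9 metal and zinc genes looked up in the RefSeq promoter table (GRCh38.p14), 5 were matched, namely MT2A, MT1X, MT1H, SLC30A1 and SLC39A10. MT1E, MT1F, MT1G and MT1M had no entry. The 250 bases before the transcription start are given 5′ to 3′ on the gene's own strand, and capitals mark the 7-base core of the metal response element, searched as TGCACNC and TGCGCNC on both strands.
MT2A (chr16:56608334-56608583, plus strand): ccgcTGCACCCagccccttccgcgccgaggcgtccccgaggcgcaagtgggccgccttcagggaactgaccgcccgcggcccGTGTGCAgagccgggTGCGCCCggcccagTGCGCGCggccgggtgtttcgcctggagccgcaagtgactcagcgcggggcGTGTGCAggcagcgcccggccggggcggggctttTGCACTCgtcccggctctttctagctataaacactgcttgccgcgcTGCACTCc
MT1H (chr16:56669564-56669813, plus strand): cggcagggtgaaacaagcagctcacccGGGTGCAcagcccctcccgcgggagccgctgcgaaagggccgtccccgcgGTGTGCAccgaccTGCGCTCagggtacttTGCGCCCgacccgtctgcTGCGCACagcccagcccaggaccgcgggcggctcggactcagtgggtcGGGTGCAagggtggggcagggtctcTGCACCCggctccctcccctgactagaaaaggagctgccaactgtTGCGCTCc
MT1X (chr16:56682220-56682469, plus strand): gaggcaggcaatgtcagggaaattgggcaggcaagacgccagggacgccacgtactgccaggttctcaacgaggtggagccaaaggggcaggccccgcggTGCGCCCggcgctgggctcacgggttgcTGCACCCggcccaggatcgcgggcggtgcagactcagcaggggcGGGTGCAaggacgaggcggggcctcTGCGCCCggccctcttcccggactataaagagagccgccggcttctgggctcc
SLC30A1 (chr1:211579162-211579411, minus strand): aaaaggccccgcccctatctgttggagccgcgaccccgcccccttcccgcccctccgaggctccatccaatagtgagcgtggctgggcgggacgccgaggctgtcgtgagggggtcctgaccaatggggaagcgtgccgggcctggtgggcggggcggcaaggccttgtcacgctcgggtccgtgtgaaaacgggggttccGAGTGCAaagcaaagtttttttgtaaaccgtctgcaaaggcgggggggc
The MT2A window held 7 matches, MT1H 8, MT1X 4 and SLC30A1 1, and both entries of SLC39A10 held 0. Of 35116 promoters of the same length in the table, 24.8% held at least 1 match and 0.370% held at least 4, a limit chosen after these counts were seen. A match describes letters in this window and says nothing of whether MTF1 was bound.

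Between 12 and 24 h, 6558 of the 12621 genes tested changed in CBD cultures at an adjusted p under 0.01 (limma, Benjamini-Hochberg over all genes tested), which is 52.0%. Of these 2924 rose (23.2%) and 3634 fell (28.8%), with a median size of 0.22 on the log2 scale among called genes. A log2 difference of at least 0.5 was reached by 322 genes that rose and 116 that fell. Vehicle cultures changed over the same 12 h as well. In them 4977 genes passed (39.4%), with 2014 higher (16.0%) and 2963 lower (23.5%). The split in vehicle depended on scaling, with 40.5% of the called genes higher as deposited and 51.6% with median-ratio size factors, and 44.6% and 48.9% in CBD. It also depended on the filter, with 54.1% of the called genes higher in CBD over all entries and 33.9% at a mean FPKM of at least 5, against 50.2% and 27.3% in vehicle. Of the genes that rose in CBD, 55.0% also rose in vehicle, and of those that fell in CBD 66.0% also fell in vehicle; the reverse shares were 79.9% and 80.9%. All log2 differences below are on the log2(FPKM + 1) scale, which shrinks the change of genes at low levels. Counts of list members called in CBD are to be read beside the shares over all genes tested, 23.2% higher and 28.8% lower. Counts near those shares do not set a list apart.

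The change in CBD cultures minus the change in vehicle cultures passed the same threshold for 1028 genes, 8.15% of those tested. It was higher in CBD for 592 genes (4.69%) and lower for 436 (3.45%), and with median-ratio size factors for 526 and 545, so which direction held more genes depended on scaling. Of the 592, 293 rose in CBD and were not called in vehicle, 182 rose in both and 30 rose in CBD while they fell in vehicle. Another 72 fell in vehicle and were not called in CBD, 9 fell in both and 6 were called in neither. Of the 436, 198 fell in both, 157 fell in CBD and were not called in vehicle, 58 rose in vehicle and were not called in CBD, and 16 fell in CBD while they rose in vehicle.

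**Figure D1:**
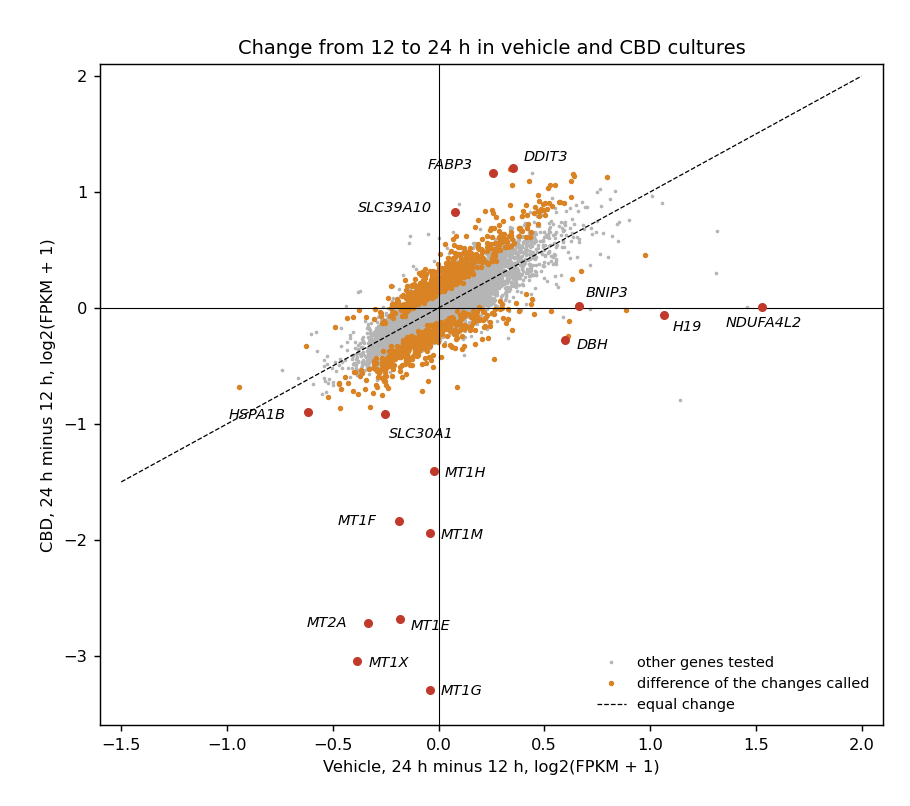
Change from 12 to 24 h on the log2(FPKM + 1) scale in vehicle cultures (horizontal axis) and CBD cultures (vertical axis) for 12002 genes, short RNA entries left out and 1 gene outside the axes. Orange points are genes whose change differed between the treatments at an adjusted p under 0.01 and red points are genes named in the text; 7 metallothioneins lie far below the dashed line of equal change, MT1G lowest at -3.29, and NDUFA4L2 and H19 lie to its right with CBD changes of 0.01 and -0.06.

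The metal response declined. The 7 largest falls among the genes named by size were all metallothioneins, and the eighth was SLC30A1. Of 13 genes on the metal response list 9 were tested, 8 of these fell and 0 rose, with a median log2 difference of -1.94 against -0.02 over all genes tested. In vehicle 1 of the 9 was called, SLC30A1, with a list median of -0.18, and the difference between the treatments was called for 8 of the 9. MT1E, MT1F, MT1G, MT1M and MT1H are below 1 FPKM in vehicle and passed the filter through the CBD samples alone, so these counts describe the genes and carry no test of the list.

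MT2A is the most abundant metallothionein of the line. It lies at chr16:56642496-56643409 (hg19, GENCODE) in a cluster of these genes. Among those listed, MT3 at chr16:56622986-56625000 comes before it and MT1X at chr16:56716382-56718108 is the last. Its level was 186, 204, 210 and 169 FPKM in the 4 CBD samples at 12 h and 25.2, 32.2, 34.6 and 22.6 FPKM at 24 h. Every sample at 24 h lay far below every sample at 12 h, and the mean fell 6.72-fold. Groups that do not overlap were a condition for being named among the largest falls. The log2 difference was -2.72 (SE 0.18, adjusted p = 1.14e-12). In vehicle MT2A went from 10.4 ± 0.938 to 8.15 ± 1.56 FPKM (SD, n = 4; adjusted p = 0.121), so CBD samples stood 18.4-fold above vehicle at 12 h and 3.51-fold above it at 24 h.

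MT1G, a metallothionein nearly silent in vehicle, had the largest log2 fall. Its level was 91.4, 112, 112 and 75.2 FPKM at 12 h and 7.70, 9.49, 11 and 7.96 at 24 h, a 10.8-fold lower mean and a log2 difference of -3.29 (SE 0.21, adjusted p = 4.89e-13). The vehicle mean at 24 h was 0.0943 ± 0.0238 FPKM, so all 4 CBD samples were still far above it. MT1X fell from 69.0, 76.2, 75.9 and 65.0 FPKM to 8.24, 8.08, 9.26 and 5.85, a 9.10-fold lower mean (log2 difference -3.05, SE 0.18, adjusted p = 2.26e-13). MT1X came closest to vehicle of the metallothioneins, at 1.66-fold the vehicle mean, and its lowest CBD sample at 24 h (5.85) was just above the highest vehicle sample (5.57). MT1E fell from 20.3, 24.1, 26.6 and 17.5 FPKM to 3.40, 1.28, 5.36 and 1.53, with the widest relative spread among the metallothioneins at 24 h. MT1F fell from a mean of 23.1 to 5.82 FPKM, a 3.97-fold change and the smallest fold of the 7. MT1M, at a mean of 6.32 and then 0.915 FPKM, and MT1H, at 4.34 and then 0.980, were listed at 0 in every vehicle sample at 24 h. MT1A, MT1B, MT1L and MT3 stayed under the filter, with no mean above 0.72 FPKM in the CBD groups.

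The difference between the treatments was -2.39 for MT2A (SE 0.25, adjusted p = 3.59e-07), -3.25 for MT1G (SE 0.29, adjusted p = 3.26e-08) and -2.66 for MT1X (SE 0.26, adjusted p = 1.14e-07). For MT1E it was -2.5, for MT1M -1.90, for MT1F -1.65 and for MT1H -1.39, with adjusted p between 1.51e-05 and 0.00106. MT1E, MT1F, MT1G, MT1M and MT1H were below 1 FPKM in vehicle and had little room to fall there. Their differences therefore mostly repeat the fall in CBD and are no separate test. The call for MT1F was lost with 0.1 in place of 1 added before the logarithm (-1.32), and that for MT1M with 5 added (-0.92). Metallothionein transcripts share stretches of sequence, and 18.7% of the 50-base words of MT1X, 18.2% of MT1M, 16.4% of MT1G, 15.8% of MT1H, 7.10% of MT1E, 4.48% of MT2A and 1.24% of MT1F occur in transcripts of another gene. Reads from such words could be split among copies.

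The earlier times place the fall. MT2A had means of 102 FPKM at 3 h and 332 at 6 h in CBD, before 192 at 12 h and 28.6 at 24 h. MT1G ran through 30.5, 150, 97.7 and 9.04, and MT1X through 69.0, 213, 71.5 and 7.86. These metallothioneins had their highest means at 6 h, a step that was not tested. Replicate 2 stood far above the other samples at 6 h, at 524 FPKM for MT2A, 260 for MT1G and 350 for MT1X. For MT1G the samples at 6 h, from 95.8 FPKM, overlapped those at 12 h, which reached 112. SLC30A1, the plasma membrane zinc exporter at chr1:211744910-211752503 (hg19), was instead highest at 3 h, with means of 33.9, 24.7, 12.0 and 5.87.

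SLC30A1 replicates were tight. The 4 samples at 12 h had 11.8, 11.7, 12.1 and 12.4 FPKM and those at 24 h 5.75, 5.70, 6.05 and 5.99, a log2 difference of -0.92 (SE 0.04, adjusted p = 2.58e-16). Vehicle also fell, from 5.81 ± 0.142 to 4.71 ± 0.139 (adjusted p = 2.38e-06), and the difference between the treatments was -0.66 (SE 0.05, adjusted p = 3.82e-09). At 24 h the CBD mean was 1.25-fold the vehicle mean and the lowest CBD sample was above the highest vehicle sample (4.90). MTF1 itself was at 2.34 and 2.17 FPKM and was not called (log2 difference -0.07, adjusted p = 0.0231).

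Of 24 zinc transporter genes 16 were tested, and 3 rose and 9 fell in CBD (median -0.14), against 2 and 7 in vehicle (median -0.10). SLC39A10, which brings zinc into the cell, moved opposite to SLC30A1. It had 9.54, 9.37, 9.08 and 9.93 FPKM at 12 h and 17.3, 17.5, 17.4 and 18.1 at 24 h, a 1.85-fold rise (log2 difference 0.83, SE 0.04, adjusted p = 2.5e-14), while vehicle went from 16.3 ± 0.792 to 17.2 ± 0.261 (adjusted p = 0.132). The CBD samples at 24 h thus overlapped the vehicle range of 16.8 to 17.4 FPKM. The CBD means at 3 and 6 h were 5.53 and 3.54. The difference between the treatments, 0.75 (SE 0.06, adjusted p = 9.11e-09), was the largest positive one in the list. SLC39A11, another importer, rose from a mean of 5.09 to 6.96 FPKM (0.39, difference 0.33), and SLC39A4 rose by 0.39 in CBD and 0.23 in vehicle.

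**Figure D2:**
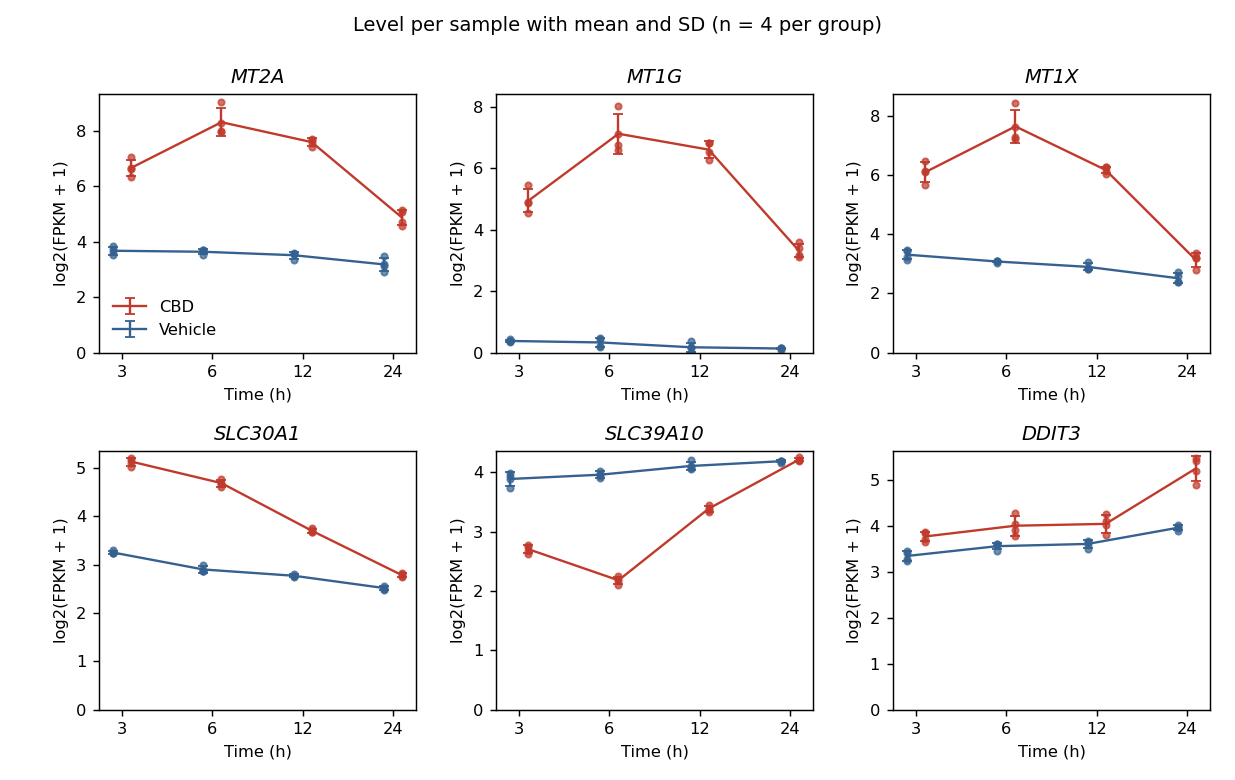
Level of 6 genes on the log2(FPKM + 1) scale against time in CBD (red) and vehicle (blue), with a point per sample and the mean with its SD (n = 4). The metallothioneins MT2A, MT1G and MT1X have their highest means at 6 h and drop by 24 h. SLC30A1 falls throughout, SLC39A10 climbs back to the vehicle level and DDIT3 rises after 12 h.

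Heat shock chaperones, which refold damaged proteins, fell in both treatments. Of 12 tested, 10 fell and 0 rose in CBD (median -0.51), and 9 fell in vehicle (median -0.32). HSPA1B, an inducible HSP70, went from 16.3, 16.0, 16.9 and 16.9 FPKM to 7.91, 8.01, 9.15 and 8.59 (log2 difference -0.90, SE 0.04, adjusted p = 1.20e-15). Vehicle fell by 0.62, and the difference of -0.28 (SE 0.06) was called at an adjusted p of 0.00113. Its near-identical neighbour HSPA1A fell by 0.77, with a difference of -0.25. The 2 genes share 73.7% (HSPA1A) and 73.6% (HSPA1B) of their 50-base words with other transcripts and are uncertain as separate values. Differences were also called for DNAJB1 (-0.17) and HSPE1 (-0.18), both co-chaperones. The difference calls of HSPA1A and HSPE1 were lost in a fit of the compared groups alone (adjusted p = 0.0339 and 0.0224). DNAJA1 had a CBD fall of 0.74 from 172 to 102 FPKM and a difference of -0.36 (adjusted p = 0.0131). HSP90AB1 and BAG3 were not called, at -0.07 and -0.03.

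The unfolded protein response list holds endoplasmic reticulum chaperones and their regulators. In CBD 11 of its 16 genes fell and 2 rose (median -0.32), and in vehicle 12 fell (median -0.33). HSPA5, the main chaperone of that compartment, fell by 0.60 in CBD and by 0.66 in vehicle. CALR, which fell by 0.56, was the 1 member with a lower change in CBD (difference -0.20), and HERPUD1, which rose by 0.24, the 1 with a higher change (0.40). Both calls of HERPUD1 were lost in a fit of the compared groups alone (adjusted p = 0.0576 and 0.0179).

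The 12 largest rises were DDIT3, AKNA, FABP3, CDC42EP1, SUSD3, PHYHIP, TMC6, SH2D3C, CREB5, PPAP2C, ASS1 and SERINC2, with log2 differences from 1.20 down to 1.04. All 12 also rose in vehicle, by 0.26 to 0.80, and the difference between the treatments was called for each of them, from 0.34 for PHYHIP to 0.91 for FABP3. The CBD groups did not overlap for any, since that was part of the naming rule.

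DDIT3, the stress transcription factor CHOP at chr12:57910371-57915520 (hg19), led the rises. Its level was 15.1, 16.2, 18 and 12.8 FPKM at 12 h and 41.6, 35.6, 43.5 and 28.5 at 24 h, a 2.40-fold rise (log2 difference 1.20, SE 0.11, adjusted p = 2.76e-10). The lowest sample at 24 h was well above the highest at 12 h. In vehicle the mean went from 11.2 ± 0.649 to 14.5 ± 0.617, and the difference between the treatments was 0.85 (SE 0.15, adjusted p = 0.000238). FABP3, a carrier of fatty acids, rose from 26.8, 24.8, 22.0 and 24.4 FPKM to 48.5, 62.7, 53.9 and 60.2. Its change differed from that of vehicle by 0.91 (SE 0.09, adjusted p = 7.81e-08), the largest positive difference among the genes named, with vehicle at 9.05 ± 0.248 and 11 ± 0.195. AKNA, an AT-hook protein, went from 1.4, 1.64, 2.04 and 1.37 to 6.35, 4.24, 6.17 and 3.65, the largest ratio of means (3.16) among these 6 differences. ASS1, the argininosuccinate synthase of arginine synthesis, rose from 61.3, 59.6, 63.6 and 51.5 FPKM to 126, 121, 136 and 113 (difference 0.71, adjusted p = 7.59e-08). SH2D3C, an adaptor protein, rose 2.33-fold from a mean of 5.78 to 13.5 FPKM and passed from 0.697-fold the vehicle mean to 1.17-fold.

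Of 21 genes tested on the ATF4 and CHOP list, 10 rose and 4 fell in CBD (median 0.12), against 4 and 6 in vehicle (median -0.02). Besides DDIT3, the transcription factors ATF3 and CEBPB rose by 0.61 and 0.43, the cystine importer SLC7A11 by 0.47 and the pseudokinase TRIB3 by 0.41. ATF4 itself was not called, at 281 and then 298 FPKM. The difference between the treatments was called for DDIT3, CEBPB (0.39) and MTHFD2 (0.23) upward and for VLDLR (-0.14) downward. SLC7A11 had 4.56, 2.92, 4.26 and 2.38 FPKM at 24 h, and its difference of 0.42 was not called (adjusted p = 0.0336). In a fit of the compared groups alone, the CBD calls of SLC7A11, TRIB3, ASNS and MTHFD2 were lost (adjusted p = 0.0364, 0.0880, 0.0587 and 0.0954), as were the difference calls of CEBPB and MTHFD2 (adjusted p = 0.0197 and 0.0217). The asparagine synthetase ASNS rose by 0.19 and the serine synthesis enzyme PSAT1 fell by 0.21. Of 20 cytosolic aminoacyl-tRNA synthetases, which charge tRNAs, 3 rose and 5 fell (median -0.01), and SARS, with a rise of 0.34, was the 1 with a called difference (0.29), which a fit of the compared groups alone lost (adjusted p = 0.0127).

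Of 18 targets of NFE2L2, the factor of the oxidative stress response, 6 rose and 6 fell in CBD (median -0.02). In vehicle 1 rose and 9 fell, and the difference between the treatments was higher for 6 and lower for 0, a median of 0.11 against 0.00 over all genes. HMOX1, which breaks down heme, rose from 5.22, 4.49, 5.12 and 4.19 FPKM to 8.52, 8.42, 9.32 and 7.21 (log2 difference 0.70, SE 0.07, adjusted p = 4.68e-09), with a difference of 0.53. FTH1, the heavy chain of ferritin, rose by 0.22 from 619 to 720 FPKM while vehicle had 505 and 477. NQO1, a quinone reductase, fell by 0.17 in CBD and by 0.49 in vehicle. On the heme and iron list 5 of 18 rose (27.8%) and 4 fell (22.2%), with a median of 0.02. Over all genes tested the shares were 23.2% and 28.8%. TFRC, the transferrin receptor, rose by 0.19 in CBD and fell by 0.15 in vehicle, and UROD and ALAD of heme synthesis each had a lower change in CBD.

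Of 20 genes of cholesterol biosynthesis, 13 fell and 1 rose in CBD (median -0.15), and 15 fell and 1 rose in vehicle (median -0.26). The falls in CBD included IDI1 (-0.48) and NSDHL (-0.40). For 4 genes the difference between the treatments was higher and for 0 it was lower. HMGCS1, an early enzyme of the pathway, had 202, 186, 177 and 202 FPKM at 12 h and 175, 184, 175 and 190 at 24 h. These groups overlapped and HMGCS1 was not called in CBD (log2 difference -0.08, adjusted p = 0.0780), while vehicle went from 81.0 ± 1.85 to 61.0 ± 2.59. FDPS, the farnesyl diphosphate synthase, rose from 273, 256, 254 and 251 FPKM to 299, 324, 316 and 321 and was the single riser in CBD (0.29). ACAT2 and FDFT1 were the other two, with differences of 0.30 and 0.24. The CBD mean of HMGCS1 was 2.37-fold the vehicle mean at 12 h and 2.97-fold at 24 h.

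Of 10 regulators of the pathway and of lipoprotein uptake 2 rose and 1 fell in CBD (median -0.02). The counts in vehicle were the same, with a median of 0.03. SREBF2, the main transcription factor of the pathway, rose by 0.34 (difference 0.23), and MYLIP, a ubiquitin ligase, rose by 0.39 (difference 0.29). INSIG1 fell by 0.11, a call lost with quantile normalization (-0.011, adjusted p = 0.792). Of 12 genes of cholesterol transport, efflux and storage 6 rose and 2 fell (median 0.10). NPC2 rose by 0.51, GRAMD1A by 0.49, ABCG1 by 0.42 and NPC1 by 0.18, while PLIN2, a lipid droplet coat protein, fell by 0.37. The 1 called difference was LIPA, the lysosomal acid lipase, at 0.21. In fatty acid synthesis 3 of 12 rose (25%, against 23.2% of all genes tested) and 5 fell (41.7%, against 28.8%), with a median of -0.06. ACSS2 and ACSL1 were higher by 0.39 and 0.25 and ELOVL6 lower by 0.38.

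**Figure D3:**
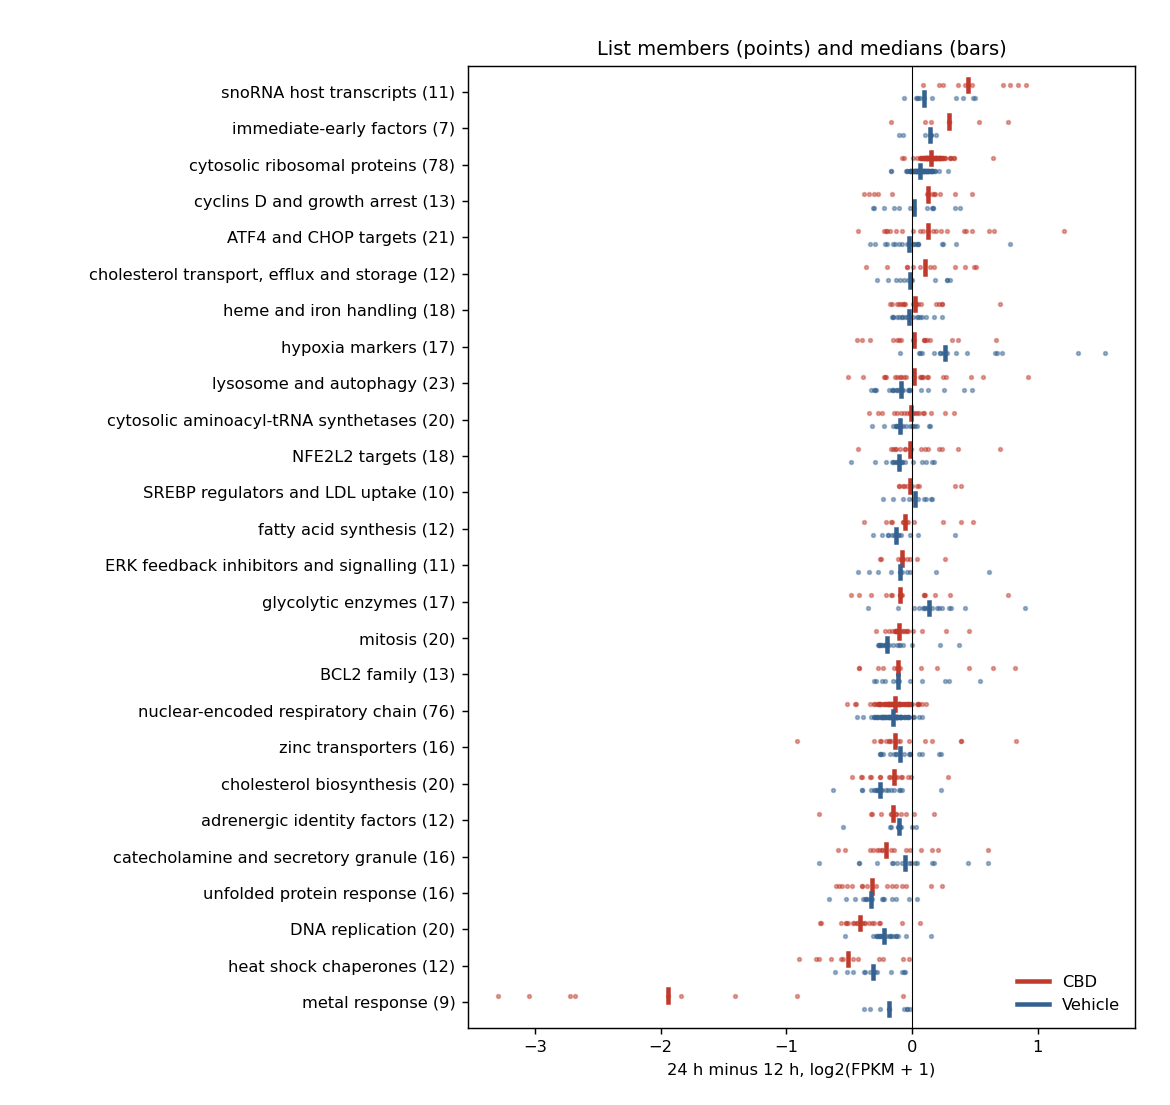
Log2 difference of 24 h minus 12 h for the members of each gene list (points) and the list median (bar) in CBD (red) and vehicle (blue), with the number of genes tested in parentheses. The metal response list lies farthest from 0 with a CBD median of -1.94 and a vehicle median of -0.18, and the hypoxia list has a vehicle median of 0.26 and a CBD median of 0.02. MT1E, MT1F, MT1G, MT1M and MT1H passed the filter through the CBD samples alone, so the place of the metal response list is no test of it.

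Hypoxia markers, genes that rise when oxygen is short, moved mainly in vehicle. Of 17 tested, 13 rose and 0 fell in vehicle (median 0.26), whereas 4 rose and 4 fell in CBD (median 0.02). The difference between the treatments was lower for 10 genes (58.8%) and higher for 0, a median of -0.35. NDUFA4L2, a mitochondrial protein induced by low oxygen, had 0.901, 0.875, 1.14 and 1.36 FPKM in CBD at 12 h and 0.908, 1.07, 1.26 and 1.08 at 24 h. These groups overlapped throughout, while vehicle went from 2.19 ± 0.426 to 8.41 ± 2.5 (log2 difference 1.53, adjusted p = 2.67e-08), so the difference was -1.52 (SE 0.23, adjusted p = 4.79e-05). BNIP3, of mitochondrial autophagy, stayed between 41.3 and 43.3 FPKM at 12 h and between 40.6 and 45.2 at 24 h in CBD, and rose from 64.5 to 103 in vehicle. STC1 fell by 0.44 in CBD and rose by 0.26 in vehicle. SLC2A1, the main glucose importer, fell by 0.34 in CBD (difference -0.40), and VEGFA and PDK1 rose in both treatments. SLC16A3, the lactate exporter, rose by 0.67 in CBD and 1.31 in vehicle, and its difference of -0.65 was not called.

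Glycolytic enzymes split in the same direction. In CBD 4 of 17 rose and 8 fell (median -0.09), in vehicle 13 rose and 2 fell (median 0.13), and the difference was lower for 8 (47.1%) and higher for 0. TPI1, the triosephosphate isomerase, had 337, 332, 338 and 343 FPKM at 12 h and 268, 259, 270 and 280 at 24 h (log2 difference -0.33, SE 0.03, adjusted p = 2.57e-11). In vehicle it rose from 384 ± 8.31 to 417 ± 11.6, a difference of -0.45 (SE 0.04, adjusted p = 4.34e-09). PGK1 fell by 0.17 in CBD and rose by 0.21 in vehicle, although with quantile normalization its CBD value was -0.045 and not called (adjusted p = 0.125), and ENO1 and PKM likewise fell in CBD and rose in vehicle. PGAM1 fell by 0.42 in CBD and was at 145 and 146 FPKM in vehicle, but 40.0% of its 50-base words occur in other transcripts. ALDOC rose in both, by 0.76 and 0.90. TXNIP and ARRDC4, arrestins whose transcripts follow glucose, rose in both treatments with no called difference.

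**Figure D4:**
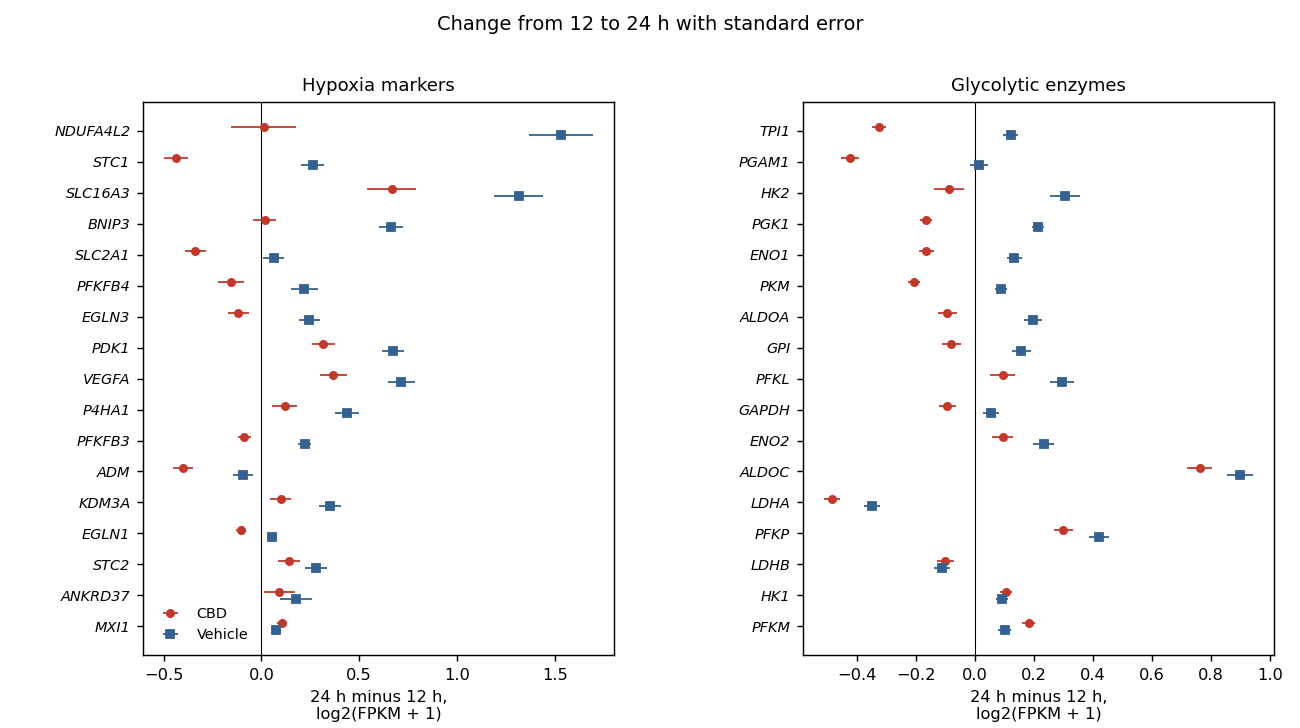
Log2 difference of 24 h minus 12 h with its standard error for hypoxia markers (left) and glycolytic enzymes (right) in CBD (red circles) and vehicle (blue squares), ordered by the difference between the treatments. Nearly all blue squares lie to the right of the red circles, by 1.52 for NDUFA4L2 and 0.45 for TPI1, while MXI1 and PFKM at the bottom show nearly equal changes.

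DNA replication genes fell in both treatments and further in CBD. Of 20 tested, 18 fell in CBD (median -0.42) and 16 in vehicle (median -0.23), and the difference was lower for 12 (60.0%) and higher for 0. UHRF1, which maintains DNA methylation at the fork, went from 38, 39.3, 37.6 and 40.0 FPKM to 23.3, 20.7, 24.0 and 23.6 (log2 difference -0.73, SE 0.04, adjusted p = 4.28e-15), against a vehicle fall of 0.31. PCNA, the sliding clamp, went from 191, 191, 192 and 195 FPKM to 132, 135, 133 and 140, with a difference of -0.26 (SE 0.03, adjusted p = 1.25e-06). The groups were clearly separated for both. The helicase subunits MCM3, MCM4, MCM5, MCM6 and MCM7 each fell further in CBD, by differences of -0.15 to -0.23 (MCM7 -0.085 and not called with quantile normalization), and MCM2, at -0.13, was not called. RRM2, a subunit of ribonucleotide reductase, fell by 0.73, and its difference of -0.19 missed the threshold (adjusted p = 0.0101). CCNE1 and CDT1 were not called in either treatment.

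Genes of mitosis, which separates the copied chromosomes, came next in the cycle. In CBD 10 of 20 fell and 1 rose (median -0.11), in vehicle 14 fell (median -0.20), and 2 had a higher change in CBD, CDC20 (0.20) and AURKA (0.14). With quantile normalization 2 of the 20 fell in CBD. CENPE, a kinetochore motor, rose by 0.45, a call lost in 6 of the 8 fits with 1 sample left out. Among 13 D-type cyclins and growth arrest genes 5 rose and 5 fell (median 0.12). CCND1 fell by 0.34 in CBD and 0.15 in vehicle, CCND3 fell by 0.30, and BTG2 and CDKN1C rose by 0.48 and 0.34. CDKN1A (p21) was at 1.82 and 2.17 FPKM and was not called.

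The transcripts that host small nucleolar RNAs rose. They are spliced transcripts that carry small nucleolar RNAs in their introns, and several are known targets of nonsense-mediated decay. Of 11 tested, 10 rose in CBD (90.9%, median 0.45) and 5 in vehicle (median 0.10), and 5 had a higher change in CBD. GAS5, named for its rise in growth arrest, had 296, 290, 308 and 272 FPKM at 12 h and 562, 534, 576 and 517 at 24 h, a 1.88-fold rise (log2 difference 0.91, SE 0.04, adjusted p = 7.52e-16). Vehicle went from 240 ± 1.54 to 340 ± 11.7, and the difference was 0.40 (SE 0.05, adjusted p = 1.12e-05). ZFAS1 rose from 117, 117, 125 and 126 FPKM to 215, 193, 224 and 202, with a difference of 0.43. EPB41L4A-AS1, SNHG1 and SNHG12 were the other genes with a called difference (0.36, 0.32 and 0.32), and these 3 calls were lost in a fit of the compared groups alone (adjusted p = 0.0153, 0.0146 and 0.0434).

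Of 78 cytosolic ribosomal protein genes, 53 rose and 0 fell in CBD (67.9%, median 0.15), against 17 higher and 2 lower in vehicle (median 0.07). The called rises were at most 0.33, for RPL13A, and RPL21 had a log2 difference of 0.64 that was not called (adjusted p = 0.0291). The difference between the treatments was called for RPL12 alone (0.15). With quantile normalization 31 rose and 2 fell, and the RPL12 difference was 0.029 and not called (adjusted p = 0.489). Nuclear-encoded respiratory chain genes went the other way in both treatments, with 45 of 76 lower and 2 higher in CBD (median -0.14) and 47 lower in vehicle (median -0.15), and 0 called differences. Complex I accounted for 26 of the 45, out of 38 tested. NDUFB2 had the largest fall, from 166 to 116 FPKM (-0.52), and UQCRC2 and SDHA rose by 0.11 and 0.08. With quantile normalization 23 of the 76 fell and 5 rose.

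**Figure D5:**
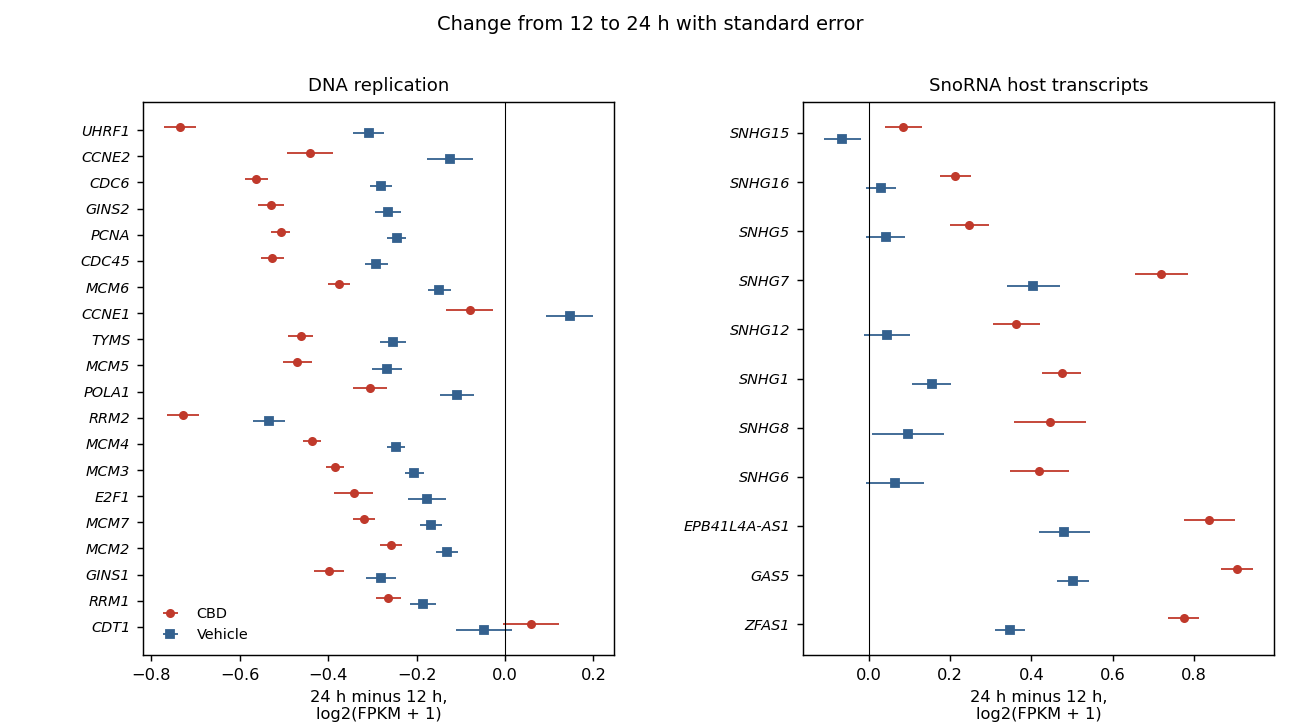
Log2 difference of 24 h minus 12 h with its standard error for DNA replication genes (left) and snoRNA host transcripts (right) in CBD (red circles) and vehicle (blue squares), ordered by the difference between the treatments. Replication genes lie left of 0 in both treatments and farther left in CBD, with UHRF1 at -0.73 and -0.31, and host transcripts lie farther right in CBD, with GAS5 at 0.91 and 0.50.

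Of 12 adrenergic identity factors 8 fell and 1 rose in CBD (median -0.15), and 5 fell in vehicle (median -0.11). ISL1 fell by 0.33 with a difference of -0.23, GATA2 fell by 0.32, and MYCN was at 2235 and 2257 FPKM with no call. Of 16 genes of catecholamine synthesis and secretory granules 8 fell and 3 rose in CBD (median -0.20), and 6 fell and 3 rose in vehicle (median -0.05). The difference between the treatments had a median of 0.01 and was called for 2 of the 16, DBH and CHGA. DBH, which converts dopamine to noradrenaline, had 4.40, 5.53, 5.43 and 4.74 FPKM at 12 h and 4.23, 3.74, 4.07 and 3.78 at 24 h, while vehicle rose from 8.23 ± 0.314 to 13.0 ± 0.985. Its difference was -0.88 (SE 0.09, adjusted p = 1.14e-07). CHGA, a granule protein, fell from 446 to 362 FPKM (difference -0.48), with 1 sample at 24 h, at 285, below the rest (373 to 399). TH, the rate-limiting enzyme, fell by 0.34 and the vesicular transporter SLC18A2 rose by 0.61, both with no called difference.

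Immediate-early factors rose, 4 of 7 in CBD and 2 in vehicle. JUN went from 16.7, 18.5, 19.3 and 17.7 FPKM to 31.5, 28.4, 33.8 and 31.7, from 0.621-fold to 0.942-fold of the vehicle mean (difference 0.58, SE 0.08, adjusted p = 1.06e-05). JUND rose by 0.53 (difference 0.43). FOS, FOSB, FOSL1, EGR2, EGR3 and MYC were below the filter. On the ERK feedback list 1 of 11 rose (9.09%, against 23.2% of all genes tested) and 3 fell (27.3%, against 28.8%). RGS4, an inhibitor of G protein signalling, was at 34.4 and 28.8 FPKM in CBD (adjusted p = 0.0101) and rose from 101 to 156 in vehicle, a difference of -0.86. ETV4 and ETV5 fell in vehicle and were not called in CBD, with differences of 0.34 and 0.26.

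In the BCL2 family 4 of 13 genes rose and 4 fell in CBD (30.8% each way, median -0.12), against 23.2% and 28.8% of all genes tested. BBC3 (PUMA), a pro-apoptotic activator, went from 0.953, 1.00, 1.32 and 0.778 FPKM to 2.96, 1.88, 3.08 and 2.36 (log2 difference 0.82, SE 0.10, adjusted p = 4.22e-08), with a difference of 0.56. The difference call of BBC3 was lost with 0.1 added, with quantile normalization and in a fit of the compared groups alone (adjusted p = 0.0305, 0.0286 and 0.0226). BMF, another pro-apoptotic member, rose by 0.64 (difference 0.34), and MCL1, which opposes them, fell by 0.42 (difference -0.18). BID and BAK1 fell in both treatments. Of 23 lysosome and autophagy genes 8 rose and 6 fell (median 0.01). GABARAPL1, of the autophagosome, rose from a mean of 4.04 to 8.51 FPKM (log2 difference 0.92, difference 0.44). The transcription factor TFEB rose by 0.57. SQSTM1 (p62) rose by 0.13 in CBD, with a difference of 0.20. With 1 sample left out these calls were lost in 4 of 8 and 12 of 16 fits.

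Smaller named falls were TP53I3, an oxidoreductase, which went from a mean of 45.5 to 24.7 FPKM (-0.86, difference -0.39), and SMIM18, a small membrane protein, from 6.69 to 3.26 (-0.85, difference -0.52). In bulk RNA, fewer cells of a type and less RNA per cell cannot be told apart in any of these changes.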

How the data were processed

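SK-N-BE(2) samples were grouped from their titles. Per the labels and methods, the authors used Trimmomatic 0.36 for trimming, TopHat for alignment (hg19, up to 2 mismatches) and Cufflinks for the FPKM of each sample, and these deposited FPKM were used as they are; sources disagree on the library kit (Nugen or TruSEQ). A deposited table of the authors' own Cuffdiff comparisons (fold changes and q-values of CBD against vehicle) was not used. The filter kept 12621 genes whose mean over the 32 samples reached 1 FPKM, the scale was log2(FPKM + 1), and 8 group means were fitted with limma 3.58.1 (R 4.3.3, eBayes with a trend), with Benjamini-Hochberg adjustment within each of 3 comparisons and a threshold of 0.01. The script was tested on simulated data. Named genes are the 12 largest rises and 12 largest falls in CBD among called genes whose groups did not overlap, short RNA entries excluded, the 6 largest differences between treatments each way under the same conditions, and members of 30 lists. H19 and the genes of the last part were chosen after their values were seen. Members and lists were chosen with earlier results of these data known. Alternatives were other added values (0.1, 5), filters, scalings, fits and thresholds, a replicate block, and each sample left out; 2 fits, one lacking short RNA entries and one with a depth covariate, were added after seeing the data. Gene positions are from GENCODE 44 on GRCh37 (hg19) and promoters from RefSeq (GRCh38.p14). Some list members are counted but not reported here by name.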

Additional observations from a re-analysis of the deposited data

Results flagged for a closer look

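The change from 12 to 24 h differed between CBD and vehicle for 1028 genes by the test of that difference in limma. The genes named for the largest differences were FABP3 (0.91, adjusted p = 7.81e-08), AKNA (0.86, adjusted p = 7.54e-05), DDIT3 (0.85, adjusted p = 0.000238), SLC39A10 (0.75, adjusted p = 9.11e-09), ASS1 (0.71, adjusted p = 7.59e-08) and SH2D3C (0.66, adjusted p = 9.05e-07) on the higher side. On the lower side they were MT1G (-3.25), MT1X (-2.66), MT1E (-2.5, adjusted p = 0.000144), MT2A (-2.39), MT1M (-1.90, adjusted p = 0.00106) and MT1F (-1.65, adjusted p = 1.51e-05). MT1G, MT1E, MT1M and MT1F passed the filter through the CBD samples alone. Their differences mostly repeat the fall in CBD and are no separate test. No sample stood apart from the other 3 of its group by Dixon's test in the 54 groups of 4 examined, which cover the genes named by size in both CBD groups, relative depth and median level.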

How the results depend on the processing

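The count of genes called in CBD stayed within 1.5 times of 6558 under each alternative except one, as did that in vehicle (4977), and the exception in both was a log2 difference of at least 0.5 as a second condition, which left 438 and 162 genes. The difference between the treatments (1028 genes) was called for 47 genes under that condition and for 2056 at an adjusted p under 0.05. Leaving out each sample in turn gave 6048 to 6178 genes in CBD, 4178 to 4904 in vehicle and 823 to 949 for the difference. Deviations of same-numbered samples correlated at -0.0501 to 0.0380 in CBD and 0.0445 to 0.121 in vehicle, not above 0.1 for every pair, so the numbers were not taken as pairs. As a hint from the data, 4 of 4 vehicle samples and 1 of 4 CBD samples correlated best with their own number. With the replicate block 6874, 5349 and 1234 genes were called. A fit with a covariate for relative depth, added after seeing the data, gave 6133 genes in CBD. Among the 152 genes named, none changed sign while called in either fit, for the change in CBD or for the difference. Leaving out 1 sample lost the CBD call of ALAD, CENPE, HAND2, INSIG1, MTHFD2, SDHA, SQSTM1 or TRIB3 (adjusted p up to 0.0304), each in 3 (HAND2, SDHA) to 6 (CENPE) of the 8 fits. It lost the difference call of ALAD, BBC3, CEBPB, DNAJB1, EPB41L4A-AS1, HSPA1A, HSPE1, MCM5, MCM7, MEG8, SNHG12, SQSTM1 or UROD (adjusted p up to 0.0231), each in 2 (MCM7) to 12 (SQSTM1) of the 16 fits. List medians near 0 changed sign in CBD for heme and iron handling (-0.059) and lysosome and autophagy (-0.045) with a mean FPKM of at least 5. With quantile normalization those of fatty acid synthesis (0.043), regulators of cholesterol synthesis (0.028), NFE2L2 targets (0.043) and tRNA synthetases (0.087) did. The tRNA synthetase median also changed sign with median-ratio size factors and in 4 fits with 1 sample left out, and the lysosome median in 1. Quantile normalization also left 6 zinc transporters lower, 2 fatty acid synthesis genes lower, and 9 tRNA synthetases higher with 3 lower. A fit of the compared groups alone also lost the CBD calls of ALAD, CHGA, HAND2 and SDHA and the difference calls of ALAD, BBC3, CCND1, CHGA and MEG8 (adjusted p up to 0.0680). Quantile normalization lost the CBD calls of ARRDC4, AURKA, CHGA and DLK1 and the difference calls of BBC3, HSPE1 and PPAP2C, and 0.1 added before the logarithm lost the difference calls of BBC3, CDC42EP1, HMOX1, PHYHIP and TMC6. The cause of these moves was not tested. Without read counts, the precision that depth gives to low FPKM is unknown.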

Other observations

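A few imprinted transcripts, of which one parental copy is silent, are given here as single genes chosen after their values were seen. H19, a noncoding RNA, had 47.8, 52.5, 51.8 and 50.6 FPKM in CBD at 12 h and 48.1, 49.8, 47.0 and 49.7 at 24 h, and these groups overlapped. In vehicle it rose from 69.6 ± 2.35 to 148 ± 20.2 FPKM (SD, n = 4), a difference between the treatments of -1.12 (SE 0.12, adjusted p = 2.67e-07). Its neighbour IGF2, a growth factor, was at 0.736 and 0.719 FPKM in CBD and rose from 1.58 to 3.79 in vehicle (difference -0.90), although 40.1% of its 50-base words occur in other transcripts. Both CBD means of IGF2 lay below the 1 FPKM of the filter, where the scale shrinks any change, so its difference mostly describes vehicle. At the other imprinted cluster, MEG3 rose by 0.46 in CBD and 0.98 in vehicle (difference -0.52), DLK1 fell by 0.19 and rose by 0.35 (difference -0.54), and MEG8 and MEG9 were called in vehicle alone, with differences of -0.41 and -0.73.

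A few histone transcripts were also picked after their values were seen. HIST1H1C had 8.21, 7.21, 9.38 and 6.09 FPKM in CBD at 12 h and 16.1, 13.5, 18.9 and 15.6 at 24 h, a log2 difference of 0.97 against 1.01 in vehicle, with a difference of -0.04 (SE 0.14, adjusted p = 0.878). HIST1H2AC, HIST1H2BD and HIST2H2BE rose by 0.62, 0.58 and 0.54 in CBD and by 0.82, 0.59 and 0.47 in vehicle, with differences of -0.20, -0.01 and 0.08 (SE 0.21, 0.13 and 0.07) that were not called.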
